A study of Rattus norvegicus with 10 samples.

Results

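The genes described are the voltage-gated potassium (Kv) channel subunits and their accessory subunits, measured in the cortex of rats after middle cerebral artery occlusion (MCAO) with or without neuregulin-1 (NRG1). Members were chosen by gene symbol (the Kcna, Kcnb, Kcnc, Kcnd, Kcne, Kcnf, Kcng, Kcnh, Kcnip, Kcnq, Kcns, Kcnv and Kcnab families) among the probe sets annotated with a single symbol, and the rule used no measured value. It found 47 genes with 1 probe set each, of 18511 single-symbol probe sets. The animals were adult male Sprague-Dawley rats, killed 3 h after surgery, and each array held RNA from the left hemi-cortex of 1 rat. Sham rats (4 arrays) had the surgery without the filament, MCAO rats (3 arrays) had a permanent left occlusion by intraluminal suture and received vehicle, and MCAO+NRG1 rats (3 arrays) had the same occlusion and received NRG1β into the internal carotid artery. According to the study's methods that injection came immediately before the occlusion. The labels place it both before and after.

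Kv channels open on depolarisation and let potassium leave the cell, which repolarises the action potential and limits repetitive firing. The pore is made by 4 α subunits. Kv1 channels sit mainly in axons, Kv2 channels form clusters on the soma, Kv3 channels serve fast-spiking interneurons, Kv4 channels carry the dendritic A-type current, and Kv7 (Kcnq) channels carry the M current. The EAG family (Kcnh) holds the eag, erg and elk channels, while the Kv5, Kv6, Kv8 and Kv9 subunits (Kcnf, Kcng, Kcnv, Kcns) form no channel alone and modify Kv2, so they are called silent. Kvβ (Kcnab), KCNE and KChIP (Kcnip) proteins are accessory subunits that change the gating, trafficking or surface level of the pore subunits. Loss of potassium through Kv2 channels is a known step in neuronal apoptosis.

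The values are log2 signals from robust multi-array averaging (RMA), so a difference of 1 is a 2-fold change, and levels of different probe sets are not comparable. Array medians over the single-symbol probe sets were 6.05 to 6.11 in sham arrays, 5.79 to 5.82 in 5 of the 6 occluded arrays and 6.12 in MCAO replicate 3. The counts of members called in each comparison are therefore given on the deposited scale and again after each array's median was subtracted (median centred). Values of single genes are on the deposited scale unless centring is named. Centring raised the MCAO minus sham difference by 0.16, the MCAO+NRG1 minus MCAO difference by 0.11 and the MCAO+NRG1 minus sham difference by 0.27. Sham replicate 1 stood apart: it correlated at 0.978 to 0.986 with the other sham arrays, which correlated at 0.991 to 0.994 with each other, and at 0.980 to 0.986 with the occluded arrays. Its astrocyte markers were also high, with 7 of 7 above every other sham array. MCAO replicate 3 correlated at 0.979 to 0.986 with the other occluded arrays, against 0.984 to 0.993 among those. Neuron markers (10 of 10) and the 6 cortical excitatory markers measured were above the level of olfactory and vomeronasal receptor probe sets (their 95th percentile, 4.64), used here as a background level. So were the 10 striatal and 5 thalamic markers measured. Most probe sets lie above that level, so it does not tell which regions were dissected. Of the 47 members, 40 had a mean above 4.64, as did 68.3% of all single-symbol probe sets. The members at or below it were Kcna10, Kcnq1, Kcnh6, Kcnh8, Kcnv2, Kcne1 and Kcne3. Nothing in the labels says how many litters or surgery days the rats came from, so the p-values measure the spread between these animals.

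At 3 h after occlusion, few Kv channel genes differed from sham at an adjusted p under 0.05 (limma, Benjamini-Hochberg over all 18511 probe sets). On the deposited scale 1 of 47 members was higher in MCAO than in sham (Kcne4) and 2 were lower (Kcne5 and Kcnv2), beside 1.1% of all probe sets called higher and 5.61% called lower. After median centring 3 were higher (Kcne4, Kcnv1 and Kcns2) and none was lower, beside 2.2% and 1.06%. The median difference of the members was -0.12, against -0.16 for all probe sets, and after centring it was 0.04 against 0. At an unadjusted p under 0.05, 5 members were higher and 11 lower, beside 5.48% and 23.6%. Without overlap between groups, 3 members were higher and 12 lower (2.74% and 17.8% of all probe sets), and after centring 8 were higher and 5 lower (10.6% and 8.2%). The members were thus called in shares near the background (3 of 47 beside 1241 of 18511 on the deposited scale), and 17 of 47 differences were positive on the deposited scale against 25 after centring. The number called was 3 with all arrays, 11 without sham replicate 1, 12 without MCAO replicate 3 and 19 without both. The shares of all probe sets called in those fits were 18.1%, 19.4% and 31.6%. The number was 0 without sham replicate 2, sham replicate 4 or MCAO replicate 1 (0.556%, 0.551% and 0.881% of all probe sets). It was 1 without sham replicate 3 or MCAO replicate 2 (1.11% and 0.837%). It was 2 when any 1 of the MCAO+NRG1 arrays was left out (4.3% to 6.07%).

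In MCAO+NRG1 against sham, 2 of 47 members were higher (Kcne4 and Kcnv1) and 10 were lower on the deposited scale, beside 1.51% and 15.8% of all probe sets. The 10 were Kcna5, Kcna7, Kcnh1, Kcnh2, Kcnh3, Kcnh4, Kcnh6, Kcnv2, Kcnab2 and Kcne5. After centring, 3 members were higher (Kcne4, Kcnv1 and Kcnc2) and none was lower, beside 3.82% and 1.56%. Without overlap, 2 were higher and 16 lower (2.17% and 34.2% of all probe sets), and after centring 12 and 6 (13% and 9.22%). The 12 calls, beside 17.3% of all probe sets, became 2 without MCAO+NRG1 replicate 1 (6.07%). They became 5 without MCAO+NRG1 replicate 3, sham replicate 2 or sham replicate 4 (4.8%, 5.91% and 6.7%). They became 6 without sham replicate 3 (7.28%) and 14 without sham replicate 1 (25.9%). Both comparisons use the same 4 sham arrays, so their lists are not independent. In the moderated F test over the 3 groups 10 members passed, beside 11.5% of all probe sets, and after centring 2 passed, beside 4.05%. The plot of differences shows each member on both scales.

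**Figure D1:**
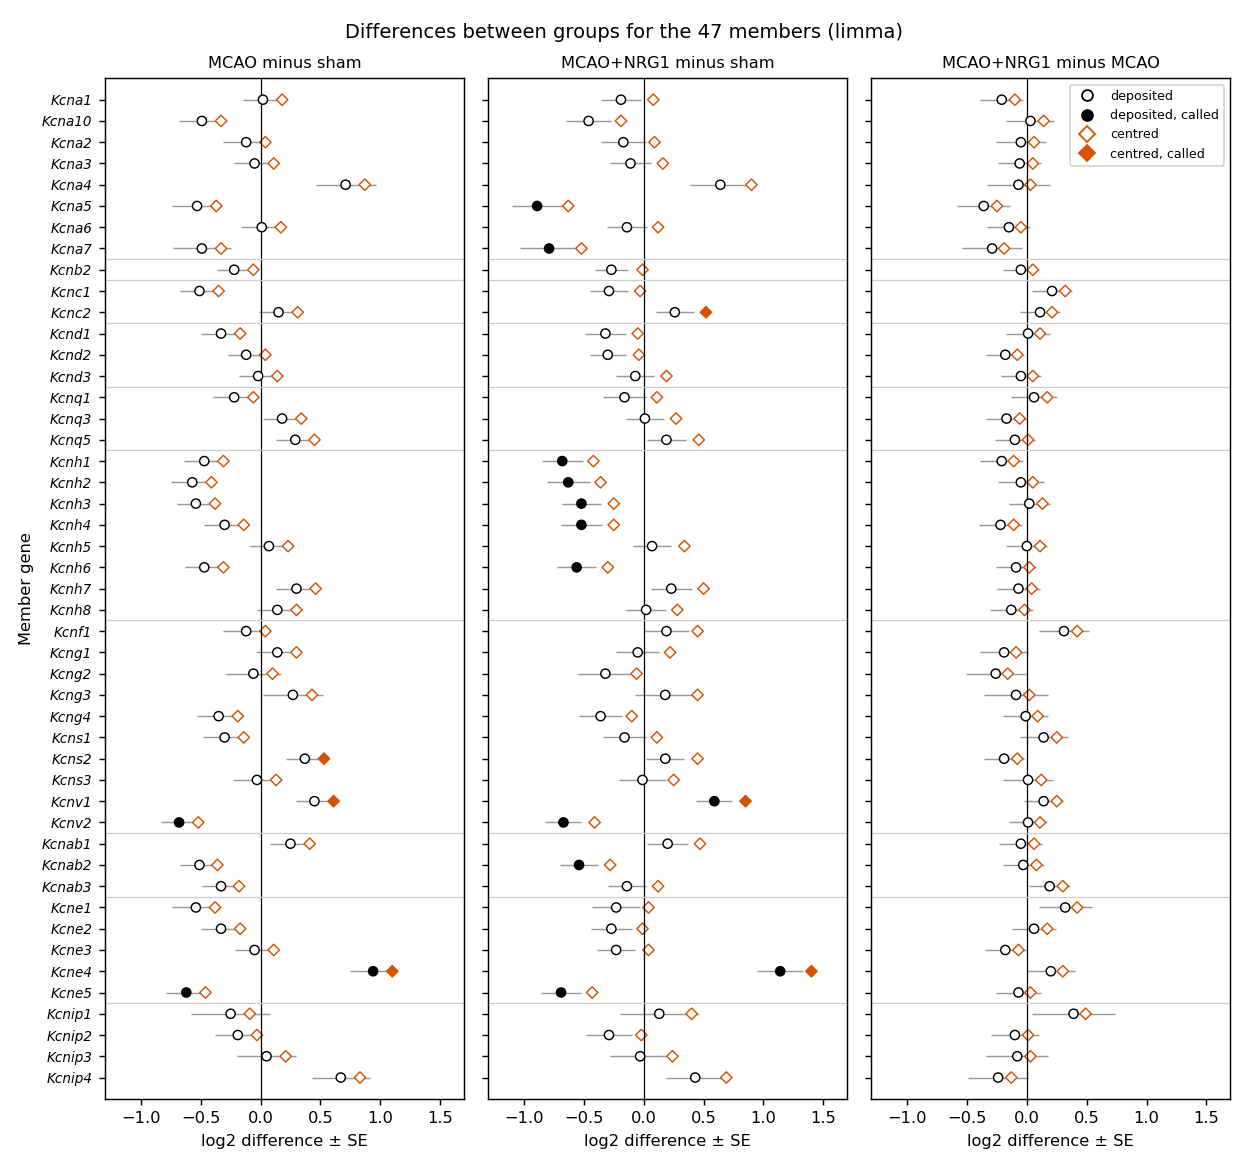
Log2 differences between groups for the 47 members, in 3 panels for the 3 comparisons. The x axis is the log2 difference (circles, deposited scale, with the standard error; diamonds, median centred), the y axis lists the genes by subfamily, and filled symbols have an adjusted p under 0.05. Kcne4 lies farthest to the right in both comparisons with sham, 10 filled circles lie left of 0 in MCAO+NRG1 minus sham, and the right panel has no filled symbol.

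Kcne4 had the largest measured log2 difference of the members in both comparisons with sham, although its sham values lay at background. It encodes a single-pass membrane protein that, in expression systems, inhibits Kcnq1 channels and some Kv1 channels. Its log2 values were 4.46, 4.44, 4.46 and 4.35 in the sham arrays, all below the receptor level of 4.64. They were 5.54, 5.06 and 5.50 in the MCAO arrays and 5.64, 5.92 and 5.13 in the MCAO+NRG1 arrays. Every occluded array was above every sham array, and the MCAO and MCAO+NRG1 arrays overlapped. The MCAO minus sham difference was 0.94 ± 0.19 (SE; adjusted p = 0.0164, limma), and the MCAO+NRG1 minus sham difference was 1.14 ± 0.19 (adjusted p = 0.00307). With the sham group at background these sizes are not exact. The means of MCAO and MCAO+NRG1 were 1.66-fold and 1.90-fold above the receptor level, with no allowance for the spread between arrays. After centring the differences from sham were 1.10 and 1.40, with adjusted p-values of 0.0218 and 0.00172. The MCAO+NRG1 call held in each of the 22 alternative settings run, with an adjusted p of at most 0.0184. The MCAO call held in 17 of them. It was lost with all probe sets tested (adjusted p = 0.0535), with the replicate number as a block (0.0528), and without sham replicate 2 (adjusted p = 0.0542), sham replicate 4 (0.0586) or MCAO replicate 1 (0.0696), with log2 differences of 0.94, 0.91 and 0.85.

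The promoter sequences of Kcne4, of Kcna5 and of Kcnh1 are shown because Kcne4 had the largest measured rise, and Kcna5 and Kcnh1 were, among members above the receptor level, those called lower in MCAO+NRG1 against sham in most settings (17 of 22 each). RefSeq promoter sequences (GRCr8, 250 bases before to 50 bases after the gene start, 5′ to 3′) matched 34 of the 47 members. Capitals mark a match to a searched motif.
Kcne4 (chr9:87695798-87696097, plus strand): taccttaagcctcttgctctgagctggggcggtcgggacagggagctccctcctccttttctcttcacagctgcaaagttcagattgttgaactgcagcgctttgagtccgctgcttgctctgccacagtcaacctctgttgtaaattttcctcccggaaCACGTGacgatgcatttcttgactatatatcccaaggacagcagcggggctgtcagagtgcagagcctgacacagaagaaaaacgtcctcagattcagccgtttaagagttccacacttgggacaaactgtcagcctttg
Kcna5 (chr4:161043760-161044059, minus strand): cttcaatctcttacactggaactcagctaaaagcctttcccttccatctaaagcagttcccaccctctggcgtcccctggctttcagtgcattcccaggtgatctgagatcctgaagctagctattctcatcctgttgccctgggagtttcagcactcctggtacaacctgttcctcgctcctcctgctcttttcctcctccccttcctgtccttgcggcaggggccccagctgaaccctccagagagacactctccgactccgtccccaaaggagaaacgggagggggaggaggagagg
Kcnh1 (chr13:106252966-106253265, plus strand): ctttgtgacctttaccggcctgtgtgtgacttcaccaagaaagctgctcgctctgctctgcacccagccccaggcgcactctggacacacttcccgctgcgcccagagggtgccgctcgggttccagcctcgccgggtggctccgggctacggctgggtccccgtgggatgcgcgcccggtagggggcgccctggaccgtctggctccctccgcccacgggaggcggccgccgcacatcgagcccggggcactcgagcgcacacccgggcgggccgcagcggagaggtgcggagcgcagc
The motifs searched, on both strands, were the E-box CACGTG, which was chosen after the Kcne4 sequence had been read, the cAMP response element TGACGTCA, the AP-1 site TGANTCA, the ETS site CCGGAAG and the EGR1 site GCGTGGGCG. The E-box stands at bases 161 to 166 of the Kcne4 window and was the only match in the printed sequences. Among the 34 members it was found in Kcne4 and Kcnh4, beside 6.65% of 27457 promoters. The ETS letters were in 4 members (Kcnd3, Kcnh7, Kcns3 and Kcnip2), beside 9.22% of promoters, and the AP-1 letters in 1 (Kcne1), beside 7.33%. No member held the cAMP response element (1.91% of promoters) or the EGR1 letters (0.59%). These matches are descriptions of the letters and no evidence of binding.

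The other KCNE genes did not follow Kcne4. Kcne5, whose product also inhibits Kcnq1 channels in expression systems, had log2 values of 6.70, 6.68, 6.68 and 7.18 in sham arrays, 6.01, 6.50 and 6.07 in MCAO arrays and 6.05, 6.15 and 6.16 in MCAO+NRG1 arrays. All occluded arrays were below all sham arrays. Kcne5 fell by 0.62 ± 0.17 on the log2 scale in MCAO (adjusted p = 0.0464) and by 0.69 ± 0.17 in MCAO+NRG1 (adjusted p = 0.0177). Neither call held after centring (differences of -0.46 and -0.43, adjusted p = 0.148 and 0.166). The MCAO call held in 1 of the 10 fits that left out 1 array, the one without sham replicate 1 (adjusted p = 0.0265), and its adjusted p reached 0.159 without MCAO replicate 1. The MCAO+NRG1 call was lost without MCAO+NRG1 replicate 1 (adjusted p = 0.0654), MCAO+NRG1 replicate 3 (0.0567) or sham replicate 4 (0.0605). Kcne1, Kcne2 and Kcne3 were not called, and their MCAO minus sham differences were -0.54, -0.33 and -0.05. Kcne1 and Kcne3 had means below the receptor level.

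**Figure D2:**
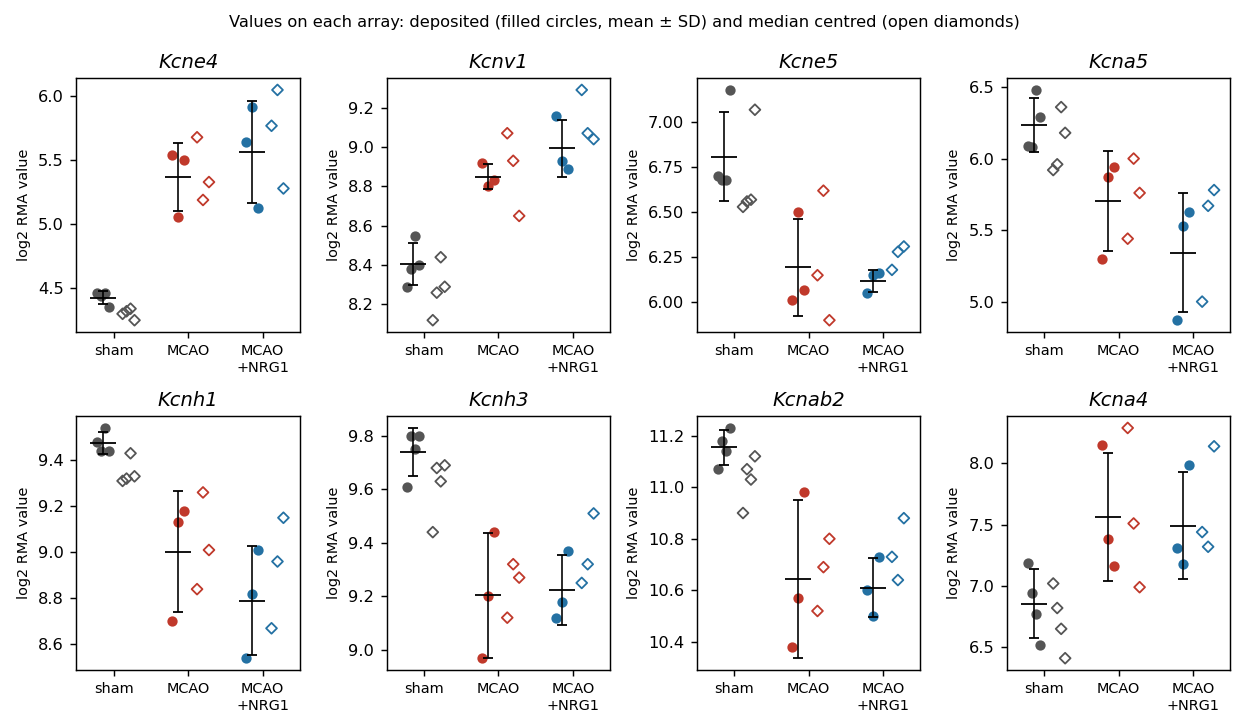
Log2 RMA values of 8 members on each array. Each panel is 1 gene, the x axis gives the group, filled circles are deposited values with the group mean and SD, and open diamonds are median-centred values; the y axes do not start at 0 and differ between panels. In Kcne4 and Kcnv1 the occluded arrays lie above the sham arrays on both scales, in Kcnh1 and Kcnab2 below them on both scales, and in Kcna4 the sham and MCAO arrays overlap.

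Of the silent subunits, Kcnv1 alone was called higher in the main fit on the deposited scale. Kcnv1, a Kv8 subunit that slows and reduces Kv2 currents, had log2 values of 8.29, 8.38, 8.55 and 8.40 in sham arrays, 8.92, 8.80 and 8.83 in MCAO arrays and 9.16, 8.93 and 8.89 in MCAO+NRG1 arrays. No occluded array overlapped a sham array on either scale. Its MCAO+NRG1 minus sham difference was 0.59 ± 0.15 (1.50-fold; adjusted p = 0.0168), and 0.85 after centring (adjusted p = 0.00828). This call held in 19 of 22 settings and was lost with the replicate number as a block, without MCAO+NRG1 replicate 1 (adjusted p = 0.0777) and without sham replicate 2 (0.054). The MCAO minus sham difference was 0.45 ± 0.15 (adjusted p = 0.0677), and it was called in 7 of 22 settings, among them centring (0.61, adjusted p = 0.0421) and the fit without MCAO replicate 3 (0.46, adjusted p = 0.0446). Kcnv2, the other Kv8 subunit and known from photoreceptors, went the other way, but in every array its value lay below 4.64. Its log2 values were 3.84 to 4.24 in sham and 3.28 to 3.43 in the 6 occluded arrays, and it was called lower in MCAO (adjusted p = 0.0206) and MCAO+NRG1 (adjusted p = 0.0113), calls that did not hold after centring and whose size is not interpreted at this level (adjusted p = 0.0667 and 0.107). The MCAO call for Kcnv2 was lost in 5 of the 10 fits without 1 array (adjusted p up to 0.0714, without sham replicate 2); the MCAO+NRG1 call was kept in all 10.

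Of the other 8 silent subunits, 1 was called on either scale. Kcns2, a Kv9 subunit, had log2 values of 6.61, 6.39, 6.37 and 6.63 in sham arrays, 6.61, 6.86 and 7.14 in MCAO arrays and 6.58, 6.73 and 6.73 in MCAO+NRG1 arrays. The deposited values of sham and MCAO overlapped, and the MCAO minus sham difference was 0.37 ± 0.16 (adjusted p = 0.148), rising to 0.53 with an adjusted p of 0.048 after centring. Kcnf1, a Kv5 subunit, had a MCAO+NRG1 minus MCAO difference of 0.31 ± 0.21, among the largest of that comparison and not called (adjusted p = 0.999). Kcng2, a Kv6 subunit, had -0.26 ± 0.25 in the same comparison. Kcng3, a Kv6 subunit, was high in 1 array of each occluded group, at 8.12 in MCAO replicate 2 and 8.08 in MCAO+NRG1 replicate 3, against at most 7.34 in the other 8 arrays. Across the 10 silent subunits the median difference was -0.04 in MCAO and -0.03 in MCAO+NRG1 against sham, and 0.12 and 0.23 after centring.

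The EAG family carried the most called falls. In MCAO+NRG1 against sham 5 of 8 genes were lower (Kcnh1, Kcnh2, Kcnh3, Kcnh4 and Kcnh6), beside 15.8% of all probe sets, and all 5 had no overlap with sham, beside 34.2%. In MCAO against sham none was called, and 4 of those 5 had no overlap with sham, beside 17.8%. The remaining 3 (Kcnh5, Kcnh7 and Kcnh8) had differences from sham of 0.02 to 0.30 on the deposited scale. Of these, Kcnh7 lay above all sham arrays in MCAO, as did 2.74% of all probe sets. The 5 include eag (Kcnh1), erg (Kcnh2 and Kcnh6) and elk genes (Kcnh3 and Kcnh4). Kcnh6 and Kcnh8 had means below the receptor level, where a fall can be measured only in part, and whether the called genes differed from the others was not tested. After centring none of the 8 was called, and the same 5 differences stayed negative (-0.14 to -0.42 over both comparisons with sham). Without overlap on that scale, 1 gene was higher and 3 lower in MCAO (10.6% and 8.2% of all probe sets). In MCAO+NRG1 3 were higher (Kcnh5, Kcnh7 and Kcnh8) and 2 lower (13% and 9.22%). The median of the 8 genes was -0.39 in MCAO and -0.52 in MCAO+NRG1 against sham, beside -0.16 and -0.24 for all probe sets, and -0.23 and -0.25 after centring, beside 0 and 0.03.

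Kcnh1, the ether-à-go-go channel of neurons, had log2 values of 9.48, 9.44, 9.54 and 9.44 in sham arrays, 8.70, 9.13 and 9.18 in MCAO arrays and 8.54, 8.82 and 9.01 in MCAO+NRG1 arrays. The 4 sham arrays lay within 0.10 of each other and above all occluded arrays on both scales. Kcnh1 had a difference of -0.47 ± 0.17 in MCAO (adjusted p = 0.0838) and fell by 0.68 ± 0.17 in MCAO+NRG1 (adjusted p = 0.0158; 0.104 after centring), and the second of these values lost its call without MCAO+NRG1 replicate 1 (difference -0.56, adjusted p = 0.0774). Kcnh3, an elk channel of forebrain neurons, had 9.61, 9.80, 9.75 and 9.80 in sham arrays, 8.97, 9.20 and 9.44 in MCAO arrays and 9.12, 9.18 and 9.37 in MCAO+NRG1 arrays. On the deposited scale all occluded arrays were below all sham arrays, and after centring this held for MCAO but not for MCAO+NRG1. The Kcnh3 difference was -0.54 ± 0.16 in MCAO, with an adjusted p of 0.050 just above the threshold, and -0.52 ± 0.16 in MCAO+NRG1 (adjusted p = 0.0355, and 0.248 after centring). Without sham replicate 1 or MCAO replicate 3 the MCAO value passed (adjusted p = 0.0261 and 0.0136). The MCAO+NRG1 call was lost without any single array of sham replicates 2 to 4 or of the MCAO+NRG1 group (adjusted p = 0.0671 to 0.122).

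Kcnh2, the erg channel best known from the heart, had log2 values of 7.05 to 7.53 in sham, 6.42 to 6.88 in MCAO and 6.47 to 6.95 in MCAO+NRG1 arrays. Its difference was -0.57 ± 0.18 in MCAO (adjusted p = 0.0598), and it fell by 0.63 ± 0.18 in MCAO+NRG1 (adjusted p = 0.0292; 0.209 after centring). Kcnh4, an elk channel, fell by 0.52 ± 0.17 in MCAO+NRG1 (adjusted p = 0.0479; 0.290 after centring), and Kcnh6, an erg channel whose value was below the receptor level in 5 of the 6 occluded arrays, by 0.56 ± 0.16 (adjusted p = 0.0299; 0.196 after centring). In the 10 fits without 1 array the MCAO+NRG1 call held in 5 for Kcnh2, 3 for Kcnh4 and 4 for Kcnh6, with adjusted p-values of up to 0.115 (without MCAO+NRG1 replicate 1), 0.199 (without MCAO+NRG1 replicate 1) and 0.0977 (without sham replicate 2).

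Differences between 2 genes within an array do not depend on the array's scale. For a pair chosen after the values were seen, Kcnh7 minus Kcnh3, the value relative to the sham mean was -0.28 to 0.21 in the 4 sham arrays, 0.63 to 1.21 in the MCAO arrays and 0.51 to 1.12 in the MCAO+NRG1 arrays. The changes of the erg gene Kcnh7 and the elk gene Kcnh3 were thus unequal in all 6 occluded arrays, which is a description with no test. A second such pair came from the Kv3 genes, which fast-spiking interneurons use. Kcnc2 minus Kcnc1 was -0.09 to 0.20 in sham arrays, 0.47 to 0.87 in MCAO arrays and 0.35 to 0.66 in MCAO+NRG1 arrays. Kcnc1 alone had a MCAO minus sham difference of -0.51 ± 0.16 (adjusted p = 0.0577) with no overlap on the deposited scale. It passed without MCAO replicate 3 (-0.58, adjusted p = 0.0241) or sham replicate 1 (-0.55, adjusted p = 0.0317). After centring the difference was -0.35 (adjusted p = 0.147), and the arrays overlapped. Kcnc2 had 0.26 ± 0.16 in MCAO+NRG1 minus sham, not called on the deposited scale (adjusted p = 0.244) and called after centring (0.52, adjusted p = 0.0481).

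**Figure D3:**
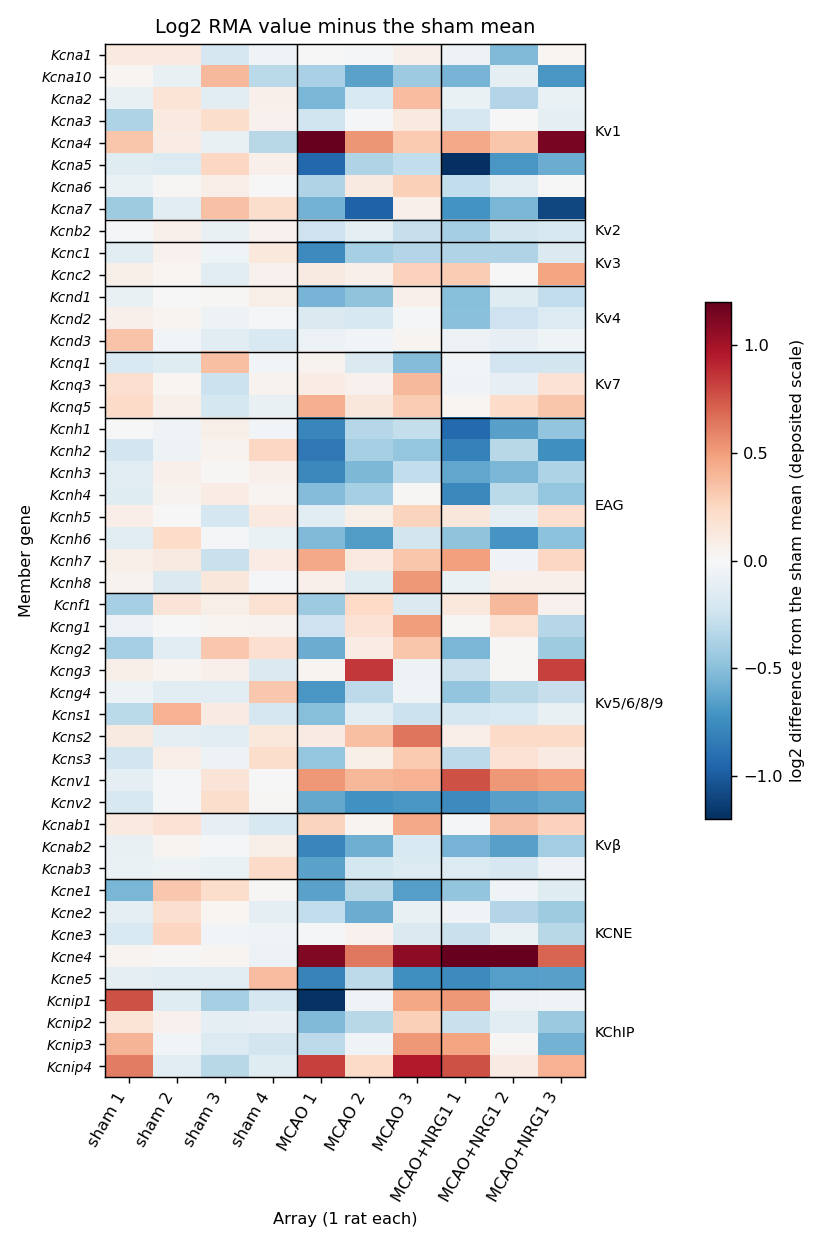
Log2 RMA value of each member on each array minus the sham mean, on the deposited scale. Columns are the 10 arrays, rows are the 47 genes by subfamily, and red is above and blue below the sham mean. The row of Kcne4 is red in all 6 occluded arrays, Kcnh1, Kcnh2, Kcnh3 and Kcnh6 are blue in all 6, and MCAO replicate 3 is paler than its neighbours in many rows.

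The Kv1 genes split by gene. Kcna5, a Kv1 channel of cardiac and vascular muscle that microglia also use, had log2 values of 6.09, 6.08, 6.48 and 6.29 in sham arrays, 5.30, 5.87 and 5.94 in MCAO arrays and 4.87, 5.53 and 5.63 in MCAO+NRG1 arrays. All occluded arrays were below all sham arrays on the deposited scale. Its difference was -0.53 ± 0.21 in MCAO (adjusted p = 0.112), and it fell by 0.89 ± 0.21 in MCAO+NRG1 (adjusted p = 0.0142). The latter difference was -0.63 after centring (adjusted p = 0.0803) and -0.65 without MCAO+NRG1 replicate 1 (adjusted p = 0.071). Kcna7, known from muscle, fell by 0.79 ± 0.24 in MCAO+NRG1 (adjusted p = 0.0358; 0.159 after centring), a call lost in 5 of the 10 fits without 1 array (adjusted p up to 0.148, without MCAO+NRG1 replicate 3). In RefSeq order Kcna5 lies beside Kcna1 and Kcna6 on chromosome 4, and those neighbours, the axonal Kcna1 and the neuronal Kcna6, had MCAO+NRG1 minus sham differences of -0.19 ± 0.17 and -0.14 ± 0.17. The axonal Kcna2, beside Kcna3 and Kcna10 on chromosome 2, had -0.17 ± 0.19.

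On the deposited scale markers of vessels and meninges were called lower in both comparisons with sham, and those of choroid plexus in MCAO+NRG1. Of all probe sets 5.61% and 15.8% were called lower there in MCAO and MCAO+NRG1. After centring 1 and 2 endothelial, 1 and 3 fibroblast and 0 and 0 choroid plexus markers were called lower, beside 1.06% and 1.56%. The marker values that follow are on the deposited scale. The 6 endothelial markers measured of 8, all above the receptor level, had a summed log2 level of 42.62 to 43.63 in sham, 37.76 to 39.81 in MCAO and 33.70 to 39.15 in MCAO+NRG1 arrays, and 3 and 6 of them were called lower against sham. The 8 markers of meningeal and perivascular fibroblasts, 7 of them above the receptor level, summed to 52.72 to 55.94, 48.10 to 48.79 and 44.96 to 49.03, with 6 called lower in each comparison. The 6 choroid plexus markers, 4 of them above the receptor level, summed to 29.58 to 44.10 in sham, 26.57 to 27.54 in MCAO and 26 to 27 in MCAO+NRG1 arrays, with median differences of -0.97 and -1.18 and 0 and 4 called lower. The 8 microglial markers had medians of -0.17 and -0.38 with none called. The part of these cells in the falls of Kcna5, Kcna7, Kcnh2 and the other members was not tested. In bulk tissue fewer cells of a type and less RNA per cell cannot be told apart. The 10 neuron markers had median differences of 0.04 in MCAO and 0.01 in MCAO+NRG1 against sham, with none called.

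Kcna4, the Kv1 subunit of a fast-inactivating A-type current, had the second largest positive difference from sham in MCAO but was not called. Its log2 values were 7.19, 6.94, 6.77 and 6.52 in sham arrays, 8.15, 7.38 and 7.16 in MCAO arrays and 7.31, 7.18 and 7.99 in MCAO+NRG1 arrays. On the deposited scale the highest sham array overlapped the lowest array of both occluded groups. The differences were 0.71 ± 0.25 (adjusted p = 0.0791) and 0.64 ± 0.25 (adjusted p = 0.078). After centring they were 0.87 and 0.90 (adjusted p = 0.0873 and 0.0672), and the MCAO+NRG1 arrays lay above all sham arrays, as did 13% of all probe sets. Without sham replicate 1 both deposited differences passed (0.82 and 0.75, adjusted p = 0.0379 and 0.0424), and without MCAO replicate 3 the MCAO value did (0.91, adjusted p = 0.0362). The Kv4 genes, which carry the dendritic A-type current, were not called in any comparison, and their differences from sham were -0.33 to -0.02 on the deposited scale. For Kcnd2, the main dendritic subunit, these were -0.12 ± 0.15 and -0.30 ± 0.15. The somatic Kv2 gene Kcnb2 was not called either (-0.22 ± 0.14 and -0.27 ± 0.14).

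The KChIP genes, whose calcium-binding products assemble with Kv4, were called in no comparison in the main fit on either scale and differed widely between arrays of a group. Kcnip1 had log2 values of 8.43, 7.52, 7.27 and 7.47 in sham arrays, 6.49, 7.64 and 8.14 in MCAO arrays and 8.20, 7.60 and 7.63 in MCAO+NRG1 arrays, and its MCAO+NRG1 minus MCAO difference of 0.39 ± 0.35 was the largest positive difference of that comparison. Kcnip4 had 9.91, 9.16, 8.96 and 9.14, then 10.11, 9.52 and 10.25, then 10.05, 9.39 and 9.72. All 4 KChIP genes were highest in sham replicate 1 among the sham arrays and in MCAO replicate 3 among the MCAO arrays. On the deposited scale 13 and 31 of all 47 members were highest in those arrays. After centring, 4 and 3 of the 4 KChIP genes were, and 8 and 10 of all 47 members. Kcnip4 was not called in the main fit (0.67 ± 0.24 in MCAO, adjusted p = 0.0853, and 0.43 ± 0.24 in MCAO+NRG1, adjusted p = 0.205). It was called higher in both comparisons without sham replicate 1 (0.87 and 0.63, adjusted p = 0.016 and 0.040). With all arrays kept, array weights also called it higher in both comparisons (38.5% and 42.2% of all probe sets called). Centring over all probe sets did so in MCAO (4.36%). Kcnip3, also known as the calcium-dependent repressor DREAM, had differences from sham of 0.05 ± 0.25 and -0.03 ± 0.25. Medians of the striatal markers relative to sham also moved by array, from -0.39 in sham replicate 4 and -0.66 in MCAO+NRG1 replicate 1 to 0.69 in MCAO replicate 3, and those of the astrocyte markers reached 0.45 in sham replicate 1; their part in these values was not tested.

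**Figure D4:**
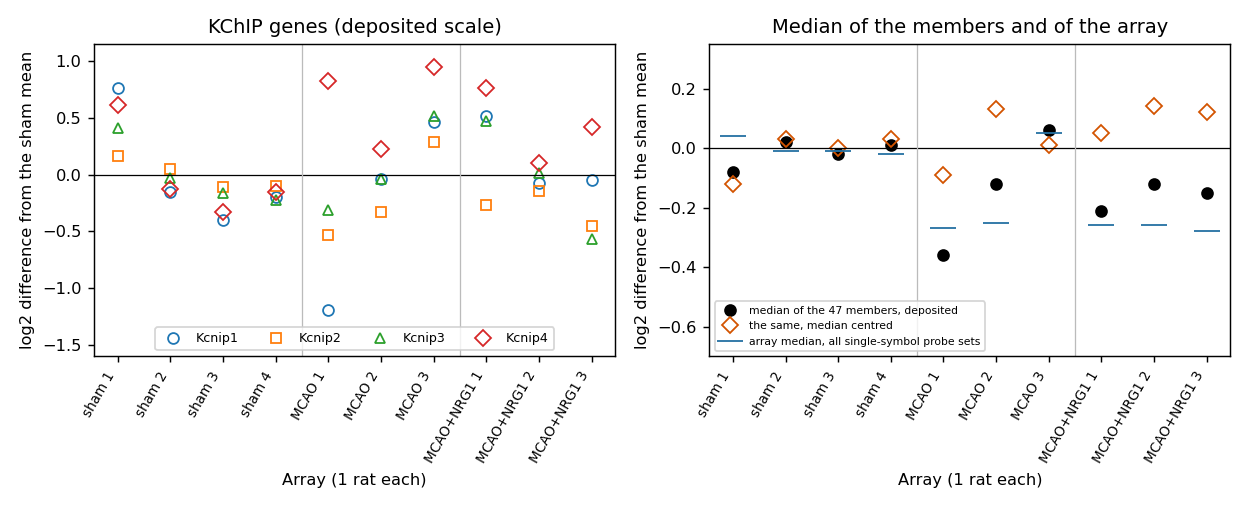
Left, log2 values of the 4 KChIP genes on each array minus the sham mean. Right, the median of the 47 members minus the sham mean (circles, deposited; diamonds, median centred) beside the array median over all single-symbol probe sets relative to the sham mean (bars). All 4 KChIP genes are highest in sham 1 among sham arrays and in MCAO 3 among MCAO arrays on this scale (31 of all 47 members are highest in MCAO 3), and the array medians of 5 occluded arrays lie below those of sham while that of MCAO 3 does not.

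Of the 3 Kvβ genes, Kcnab2, which binds Kv1 channels through a reductase-like domain and takes part in their axonal targeting, was lower after occlusion. Its log2 values were 11.07, 11.18, 11.14 and 11.23 in sham arrays, 10.38, 10.57 and 10.98 in MCAO arrays and 10.60, 10.50 and 10.73 in MCAO+NRG1 arrays, with no overlap between sham and occluded arrays on either scale. The differences from sham were -0.51 ± 0.16 (adjusted p = 0.0614) and -0.54 ± 0.16 (adjusted p = 0.0345), and after centring -0.36 and -0.28 (adjusted p = 0.122 and 0.199). Without sham replicate 1 or MCAO replicate 3 the MCAO value passed (adjusted p = 0.0412 and 0.0109). The MCAO+NRG1 call was lost in 6 of the 10 fits without 1 array (adjusted p up to 0.0969, without MCAO+NRG1 replicate 1). Kcnab1 and Kcnab3 were not called (0.25 ± 0.17 and -0.33 ± 0.16 in MCAO). The Kv7 genes were not called, with differences from sham of 0.18 ± 0.16 and 0.01 ± 0.16 for Kcnq3 and 0.29 ± 0.16 and 0.19 ± 0.16 for Kcnq5, which carry the neuronal M current. After centring the occluded arrays of both genes lay above all sham arrays in both comparisons, as did 10.6% and 13% of all probe sets.

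Among 28 genes whose proteins bind, anchor or regulate Kv channels, 24 were measured. On the deposited scale none was called in MCAO against sham (limma; at an unadjusted p under 0.05, 2 were higher and 3 lower), beside 5.48% and 23.6% of all probe sets. In MCAO+NRG1 against sham 3 of 24 were lower, beside 15.8% of all probe sets. These were Dlg4, a synaptic scaffold that binds Kv1 (-0.45 ± 0.15, adjusted p = 0.0488), Amigo1, a Kv2 accessory protein (-0.60 ± 0.16, adjusted p = 0.0223), and the actin-binding Cttn (-0.59 ± 0.17, adjusted p = 0.0294). After centring none of those was called, while Lgi1, a secreted ligand of the axonal Kv1 complex, was higher in both comparisons (0.66 and 0.53, adjusted p = 0.0334 and 0.0478), and Dpp10, a Kv4 accessory protein, was higher in MCAO+NRG1 (0.63, adjusted p = 0.0487).

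NRG1 treatment was not followed by a detectable difference in any of the 47 members. In MCAO+NRG1 minus MCAO no member was called by limma on either scale, and none had an unadjusted p under 0.05, beside 0.0054% of all probe sets called and 3.21% at that unadjusted p on the deposited scale (3.11% centred). The differences ran from -0.36 (Kcna5) to 0.39 (Kcnip1) with a median of -0.05, against -0.08 for all probe sets. No member had MCAO+NRG1 and MCAO arrays without overlap on the deposited scale, beside 5.74% of all probe sets. After centring Kcnc1 and Kcnab3 did, both higher with NRG1, beside 4.41%. The 95% intervals of the differences had half-widths of 0.32 to 0.75 (median 0.39) and together spanned -0.84 to 1.13, so changes smaller than these limits were not detectable with 3 arrays a group. For Kcne4 the difference was 0.20 (95% interval -0.23 to 0.62), for Kcnv1 0.14 (-0.19 to 0.47), for Kcnh1 -0.21 (-0.59 to 0.16) and for Kcna5 -0.36 (-0.83 to 0.12). On the deposited scale more members were called against sham in MCAO+NRG1 (12) than in MCAO (3). The shares of all probe sets were 17.3% and 6.7%. After centring 3 members were called in each comparison. The difference between MCAO+NRG1 and MCAO was itself not called for any member.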

How the data were processed

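RNA of 10 rat cortices was hybridised to Rat Gene 2.0 ST arrays, 1 rat per array. The deposited values are log2 expression, which the authors obtained with RMA in the oligo package (versions and genome build not given in the sources used here); arrays still differed in their medians. The table holds 36685 probe sets, of which 18511 were annotated with 1 gene symbol, 575 with several and the rest with none. Members were single-symbol probe sets found by symbol (47, all matched in RefSeq by gene ID). The members and lists were chosen with earlier results of these data known. Groups came from the labels. All 10 arrays were fitted in a single model with limma 3.58.1 (R 4.3.3; lmFit, contrasts.fit, eBayes), with Benjamini-Hochberg adjustment over all 18511 probe sets; called means an adjusted p under 0.05. The number of arrays, 3 or 4 a group, limits the precision; errors are SE from the model. Means were compared with the 95th percentile of 1359 olfactory and vomeronasal receptor probe sets (4.64), used as a background level. The script was tested on simulated data. Genes named with full statistics were the members called in any comparison on either scale, the 3 largest differences in each direction per comparison above the receptor level, members the study names, subunits best known in cortex and called partner genes; other members are given to complete their subfamily. Alternatives were median centring, quantile normalization, dim probe sets left out, all probe sets tested, trended robust variance, array weights, a replicate block, fits of the groups compared only, an unadjusted threshold and each array left out. Replicate numbers were not treated as pairs in the main fit. Some items are not reported here.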

Additional observations from a re-analysis of the deposited data

Results flagged for a closer look

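Within the sham group of 4 arrays, 4 of the 47 members had 1 array whose gap to the others exceeded Dixon's 95% limit, or 8.51% of members, beside 6.38% of all single-symbol probe sets; chance flags about 1 in 20. Sham replicate 4 was highest in 3 of them. Kcnab3 had 7.65 there against 7.34 to 7.36 in the other sham arrays, Kcne5 had 7.18 against 6.68 to 6.70, and Kcng4 had 6.89 against 6.43 to 6.50. Kcnh7 was lowest in sham replicate 3, at 9.30 against 9.64 to 9.68. The groups of 3 arrays were not examined this way. Kcne5 without sham replicate 4 had a MCAO minus sham difference of -0.49 (adjusted p = 0.137, limma).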

How the results depend on the processing

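No member was called higher in a setting and lower in another, but the split of calls moved with the scale: in MCAO+NRG1 minus sham from 2 higher and 10 lower to 3 higher and 0 lower after centring, and for partner genes from 0 higher and 3 lower to 2 higher and 0 lower. The number of members called in MCAO minus sham was 3, beside 6.7% of all probe sets. It became 0 with all probe sets tested (0.837% of all probe sets) and 0 with the replicate block (1.25%). It was 16 at an unadjusted p (29%) and 20 with array weights (38.5%). Leaving out 1 array gave 0 to 12 (0.551% to 19.4%). In MCAO+NRG1 minus sham the number was 12 (17.3% of all probe sets). It became 3 with median centring (5.38%), 3 with quantile normalization (5.62%) and 6 with all probe sets (6.06%). The replicate block gave 4 (7.74%), array weights 20 (42.2%) and fits without 1 array 2 to 14 (4.8% to 26.7%). In settings chosen after seeing the data, MCAO minus sham gave 19 without sham replicate 1 and MCAO replicate 3 together (31.6%). Centring without sham replicate 1 gave 9 (16.4%). MCAO+NRG1 minus sham gave 4 with centring without MCAO replicate 3 (7.38%) and 7 with centring over all probe sets (8.29%). MCAO+NRG1 minus MCAO gave 0 in every setting run. Partner genes called in MCAO minus sham (0) became 1 with centring (3.26% of all probe sets) or quantile normalization (4.01%). They became 5 at an unadjusted p, 7 with array weights and 0 to 4 without 1 array. In MCAO+NRG1 minus MCAO (0) they became 1 at an unadjusted p (3.21%). In MCAO+NRG1 minus sham (3) they became 1 with quantile normalization or all probe sets and 0 with the replicate block. Array weights gave 6 there, and fits without 1 array 0 to 3. Shares not repeated are those given for the members in the same setting and comparison. Members passing the F test (10) became 2 with centring, quantile normalization, all probe sets or the replicate block. They became 16 at an unadjusted p, 19 with array weights and 1 to 15 without 1 array. Of all probe sets 11.5% passed in the main fit and 4.05% with centring. The shares passing in the other settings are not given. Of the 75 values of the named members in the 3 comparisons, 15 were called; over their 327 alternative values the call was kept in 190 and lost in 137. The other 60 gained a call in 75 of 1317. The cause was not tested.

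Median differences of subfamilies moved with the scale and with single arrays. With centring the MCAO minus sham medians became 0.08 (Kv1), -0.06 (Kv2), -0.02 (Kv3), 0.04 (Kv4), 0.34 (Kv7), -0.23 (EAG) and -0.17 (KCNE), from -0.08, -0.22, -0.18, -0.12, 0.18, -0.39 and -0.33. The MCAO+NRG1 minus sham medians became 0.09 (Kv1), -0.01 (Kv2), 0.25 (Kv3), -0.04 (Kv4), 0.27 (Kv7), -0.25 (EAG), 0.23 (silent), 0.12 (Kvβ) and 0.04 (KCNE), from -0.18, -0.27, -0.02, -0.30, 0.01, -0.52, -0.03, -0.14 and -0.23, and that of Kv2 in MCAO+NRG1 minus MCAO became 0.05, from -0.05. Quantile normalization gave -0.21 (EAG) and -0.14 (KCNE) in MCAO and -0.12 (Kv2), -0.02 (Kv4), 0.19 (Kv7), -0.27 (EAG) and 0.03 (KCNE) in MCAO+NRG1. Leaving out 1 array gave -0.25 to 0.04 (Kv1), -0.15 to 0.20 (silent) and -0.45 to -0.19 (KCNE) in MCAO minus sham, and -0.08 to 0.14 (Kvβ) and -0.04 to 0.18 (KCNE) in MCAO+NRG1 minus MCAO. Same-numbered replicates correlated at -0.19 to 0.22 in their deviations. With so few arrays this shows no pairing by number and cannot exclude it. Averaging the probe sets of a gene was not run, since each member has 1. With 3 or 4 arrays a group, differences larger than the half-widths given for MCAO+NRG1 minus MCAO could also be missed, since calls need an adjusted p.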
